A study of Mus musculus with 8 samples.

Results

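The genes described here encode proteins that hepatocytes make, most of them for secretion into blood plasma, and they were followed in RNA sequencing data from the hearts of fetal mice. They were chosen by gene symbol from a list of 35 names, drawn up after the higher means of liver transcripts in *Dio3*-/- hearts were known, so the genotype means and their spread are given below as a description. Of the 35 names, 34 were among the 26590 gene symbols of the table. Only *Ahsp*, which encodes a chaperone of α-globin in red cell precursors and is not a hepatocyte gene, had no row. For the 14 symbols with several rows, values are those of the row whose average of both genotype means was highest.

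The liver bud grows from the foregut endoderm next to the developing heart, and its hepatoblasts start to make plasma proteins soon after they form. Albumin and α-fetoprotein are the classic products of these cells, and apolipoproteins, clotting factors and protease inhibitors follow the same set of hepatic transcription factors. Albumin and transthyretin also carry thyroid hormone in blood. The fetal liver is at the same time the main site of red cell formation, so its tissue contains many erythroid cells beside hepatocytes.

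The hearts came from 4 *Dio3*+/+ and 4 *Dio3*-/- fetuses on a C57BL/6J background, each library from an individual fetus. *Dio3* encodes the type 3 deiodinase, which clears thyroid hormone, and *Dio3*-/- fetuses lack it in every tissue, so the loss is not restricted to the heart. The line was made on another strain and backcrossed to C57BL/6J. The titles of all 8 samples give embryonic day E13.5, but the age field gives E18.5 for 2 of the *Dio3*-/- hearts (replicates 3 and 4) and E13.5 for the other 6, and the study's methods give another day. Because the deposited table holds only 1 mean and 1 coefficient of variation (CV, the SD divided by the mean) per genotype, values without those 2 hearts could not be calculated, and a difference in age cannot be told apart from the genotype. The series describes the hearts as male, whereas *Xist* had means of 35.64 RPKM (CV 0.99) and 39.97 RPKM (CV 0.55) in *Dio3*+/+ and *Dio3*-/- hearts, and Y-linked *Eif2s3y* had 9.38 (CV 1.04) and 7.29 RPKM (CV 1.46). The transcript of *Dio3* itself was low in both genotypes, with 0.35 RPKM (CV 1.23) and 0.13 RPKM (CV 0.76), and did not check the labels. The tissue label held: cardiac α-actin, *Actc1*, had means of 4778.41 and 5638.08 RPKM.

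Levels are means of 4 hearts in RPKM (read numbers corrected for the length of the transcript and for the mapped reads of the library), rounded to 2 decimals. A ratio is the *Dio3*-/- mean over the *Dio3*+/+ mean and is given where the *Dio3*+/+ mean was at least 0.05 RPKM, which left out 5 of the 34 genes. With 4 values of 0 or more, a mean and a CV also set limits on the highest and the lowest heart. The largest CV in the table was 2, the limit for a sample SD of 4 values, which is reached when 1 heart holds all of the signal. A CV of 1.15 is what 2 equal hearts and 2 hearts at 0 would give, although other sets of 4 values give the same number. Above it, the highest heart holds more than 50% of the sum over the 4 hearts. The read depth of each heart is unknown from this table.

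Transcripts of hepatocyte genes were detected in hearts of both genotypes and had higher means in *Dio3*-/- hearts for 30 of the 34 genes. The mean was lower in *Dio3*-/- hearts for 3 (*Apoa4*, *Fetub* and *Cps1*), and *Apoc3* was listed at 0 in both genotypes. Summed over the 34 genes, *Dio3*+/+ hearts had a level of 31.3 RPKM and *Dio3*-/- hearts one of 151.4 RPKM, and *Alb* and *Afp* together made up 32.8% and 53.3% of these sums. Of the 29 genes with a ratio, 25 had a *Dio3*-/- mean at least 2-fold the *Dio3*+/+ mean, against 1.13% of the 20190 symbols with a *Dio3*+/+ mean of at least 0.05 RPKM. Because this contrast was in view when the genes were chosen, that count is a description only. The median ratio was 4.89 (range, 0.545 to 8.72), beside 1.02 for all symbols. More hepatic cells in the sample and more RNA per cell cannot be told apart in bulk tissue.

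**Figure D1:**
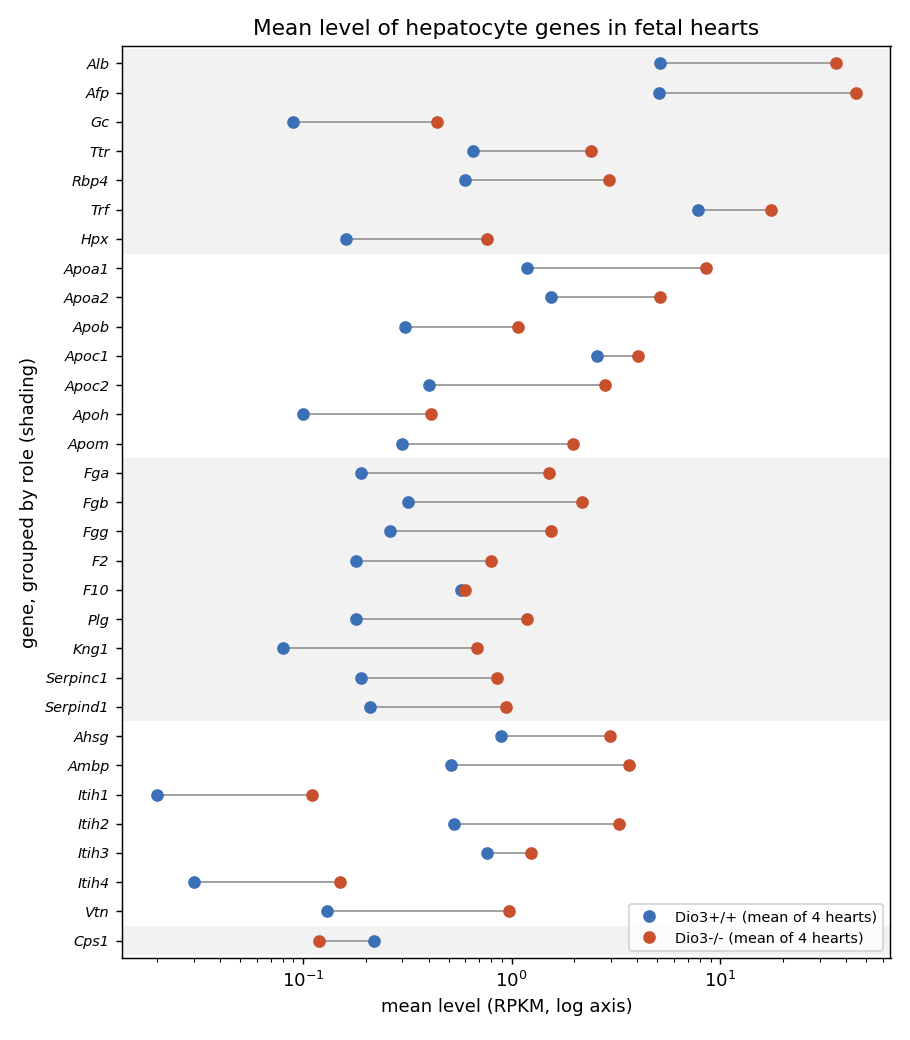
Mean level in RPKM (log axis) of the hepatocyte genes in *Dio3*+/+ (blue) and *Dio3*-/- (red-orange) hearts, grouped by role; each point is the mean of 4 hearts as deposited, without error bars, and the 3 genes with a mean of 0 in a genotype are left out. The *Dio3*-/- mean lies to the right for all genes shown except *Cps1*, and *F10* has nearly equal means.

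Promoters are shown, chosen after the values were seen, for *Alb* and *Afp*, the genes with the highest *Dio3*-/- means, for *Fgb* as a lower gene with a high ratio, and for *F10*, whose ratio was 1.05. Each run is the 250 bases before the transcription start, 5′ to 3′ on the strand of the gene, from RefSeq on GRCm38.p6. Capitals mark GTTAAT, a short form of the site bound by the hepatic factor HNF1, and TTGCNNAA, a form of the C/EBP site, on either strand. *Alb* lies at chr5:90460620-90460869 (plus strand), *Afp* at chr5:90490464-90490713 (plus strand), *Fgb* at chr3:83049864-83050113 (minus strand) and *F10* at chr8:13037058-13037307 (plus strand).
Alb: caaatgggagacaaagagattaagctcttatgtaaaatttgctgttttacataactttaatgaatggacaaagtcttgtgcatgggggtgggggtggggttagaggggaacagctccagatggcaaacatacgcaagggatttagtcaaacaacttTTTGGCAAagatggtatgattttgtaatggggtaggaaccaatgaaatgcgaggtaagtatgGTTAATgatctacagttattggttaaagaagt
Afp: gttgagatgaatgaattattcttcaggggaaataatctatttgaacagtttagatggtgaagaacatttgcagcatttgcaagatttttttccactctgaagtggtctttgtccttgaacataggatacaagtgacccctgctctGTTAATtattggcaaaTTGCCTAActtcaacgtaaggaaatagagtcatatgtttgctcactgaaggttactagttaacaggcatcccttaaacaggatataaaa
Fgb: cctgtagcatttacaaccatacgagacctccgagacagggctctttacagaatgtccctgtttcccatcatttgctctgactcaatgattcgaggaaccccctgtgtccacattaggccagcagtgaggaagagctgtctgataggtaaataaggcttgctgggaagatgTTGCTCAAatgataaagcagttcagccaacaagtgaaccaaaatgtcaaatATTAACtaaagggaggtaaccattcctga
F10: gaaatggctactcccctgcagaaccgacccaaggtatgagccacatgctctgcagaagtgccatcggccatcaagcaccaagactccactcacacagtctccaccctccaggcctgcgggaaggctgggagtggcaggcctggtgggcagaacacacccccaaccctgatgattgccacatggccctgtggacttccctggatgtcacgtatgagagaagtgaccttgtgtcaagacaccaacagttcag

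Counted from the transcription start, the HNF1 form began at -32 in *Alb*, -105 in *Afp* and -29 in *Fgb*, and the C/EBP form at -94, -89 and -80. The *F10* window held neither. Neither form was found for *Apoa1* (ratio 7.2) or *Ambp* (ratio 7.18), which are not shown. The promoters shown do not represent the list. RefSeq promoters were found for 27 of the 34 genes. GTTAAT was present in 8 of the 27 (29.6%; *Afp*, *Alb*, *Apoc2*, *Fga*, *Fgb*, *Gc*, *Itih1* and *Vtn*), against 7.49% of the promoters of 27025 symbols. TTGCNNAA was present in 10 (37.0%) against 10.8% of all. CAAAGT, a short form of the HNF4 site, was present in 11 (40.7%) against 14.1%. The FOXA forms TGTTTAC and TGTTTGC were present in 4 (14.8%) and 7 (25.9%), against 3.54% and 4.93%. The longer forms CAAAGTCC, which contains CAAAGT, and TTGCGCAA, a case of TTGCNNAA, were present in none of the 27, against 1.38% and 0.185%. All 7 forms were searched on both strands, and a match describes the letters only.

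Among the carriers of plasma, all 7 genes had a ratio above 2 and 6 had a CV of at least 1 in *Dio3*-/- hearts. *Afp*, which encodes α-fetoprotein, had a mean of 5.11 RPKM (CV 1.24) in *Dio3*+/+ and 44.57 RPKM (CV 1.18) in *Dio3*-/- hearts, the highest ratio of the 29 genes (8.72). *Alb*, which encodes albumin, had 5.16 RPKM (CV 1.29) and 36.06 RPKM (CV 1.18), a ratio of 6.99. The means of both genes were far apart between genotypes, but within each genotype the SD was larger than the mean. *Gc*, for the vitamin D-binding protein, had 0.09 RPKM (CV 1.72) and 0.44 RPKM (CV 1.15), and *Hpx*, for the heme scavenger hemopexin, had 0.16 (CV 0.70) and 0.76 RPKM (CV 1.13). *Rbp4*, for the plasma carrier of retinol, had 0.60 (CV 0.81) and 2.94 RPKM (CV 1.07), and its partner *Ttr*, for transthyretin, had 0.65 (CV 0.86) and 2.41 RPKM (CV 1.03). *Trf*, for the iron carrier transferrin, differed from the other carriers: its *Dio3*+/+ mean of 7.82 RPKM was the highest of the 34 genes, with a CV of only 0.18, and the *Dio3*-/- mean was 17.45 RPKM with a CV of 0.68.

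The apolipoproteins, which package lipids in lipoprotein particles, were less uniform. *Apoa1*, for the main protein of high-density lipoprotein, had means of 1.19 RPKM (CV 1.12) and 8.57 RPKM (CV 1.26), the widest spread of the 29 genes in *Dio3*-/- hearts. *Apoc2*, for the cofactor of lipoprotein lipase, had 0.40 (CV 1.09) and 2.79 RPKM (CV 1.06), and *Apom*, for a lipocalin carried on high-density lipoprotein, had 0.30 (CV 0.58) and 1.96 RPKM (CV 1.02). These 3 genes had ratios of 6.53 to 7.20. Ratios were lower for *Apoh* (4.10; 0.10 and 0.41 RPKM), *Apob*, for the scaffold of very-low-density lipoprotein (3.45; 0.31 and 1.07 RPKM), and *Apoa2* (3.32; 1.54 and 5.12 RPKM). *Apoc1* stood apart, with 2.56 RPKM and a CV of 0.05 in *Dio3*+/+ hearts, and 4.04 RPKM and a CV of 0.34 in *Dio3*-/- hearts. The neighbors of *Apoa1* in the same gene cluster were not seen at these levels: *Apoc3* was listed at 0 in both genotypes, and *Apoa4* had 0.01 RPKM in *Dio3*+/+ and was listed at 0 in *Dio3*-/- hearts.

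Among genes of coagulation and fibrinolysis, 8 of 9 had a ratio above 2. The 3 fibrinogen chains are made together and assembled in the hepatocyte. *Fga* had means of 0.19 RPKM (CV 1.18) and 1.51 RPKM (CV 1.19), *Fgb* 0.32 (CV 1.41) and 2.17 RPKM (CV 1.19), and *Fgg* 0.26 (CV 1.5) and 1.55 RPKM (CV 1.21). The 3 chains thus had nearly the same CV in *Dio3*-/- hearts, with ratios of 7.95, 6.78 and 5.96. *Plg*, for plasminogen, had 0.18 (CV 1.54) and 1.19 RPKM (CV 1.20), and *Kng1*, for kininogen, 0.08 (CV 1.55) and 0.68 RPKM (CV 1.11). Only uniquely mapping reads were counted, so reads shared by *Kng1* and its near copy *Kng2* (0.02 and 0.15 RPKM) are missing from both. *F2*, for prothrombin, and the thrombin inhibitors *Serpinc1* (antithrombin) and *Serpind1* (heparin cofactor II) had *Dio3*+/+ means of 0.18, 0.19 and 0.21 RPKM and *Dio3*-/- means of 0.80, 0.85 and 0.94 RPKM. Their ratios were 4.44, 4.47 and 4.48, with CVs of 0.51 to 0.65 in *Dio3*+/+ and 1.04 to 1.11 in *Dio3*-/- hearts. *F10*, for coagulation factor X, was the exception, with 0.57 RPKM (CV 0.19) and 0.60 RPKM (CV 0.33), a difference smaller than the SD of either genotype.

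The inter-α-inhibitor family binds hyaluronan in the extracellular matrix through its heavy chains. *Ambp*, for the light chain bikunin, had means of 0.51 RPKM (CV 1.31) and 3.66 RPKM (CV 1.10), a ratio of 7.18, and the heavy chain gene *Itih2* had 0.53 (CV 0.80) and 3.28 RPKM (CV 1.09), a ratio of 6.19. The other heavy chain genes were lower or less different. *Itih3* had 0.76 (CV 0.35) and 1.24 RPKM (CV 0.55), a ratio of 1.63, and *Itih1* (0.02 and 0.11 RPKM) and *Itih4* (0.03 and 0.15 RPKM) were too low for a ratio. *Ahsg*, for the mineral-binding protein fetuin-A, had 0.89 RPKM (CV 0.65) and 2.97 RPKM (CV 0.89). Its paralog *Fetub* had 0.03 RPKM in *Dio3*+/+ and was listed at 0 in *Dio3*-/- hearts. *Vtn*, for the adhesive protein vitronectin, had 0.13 (CV 1.25) and 0.97 RPKM (CV 1.15). *Cps1*, the first enzyme of the urea cycle and the gene of the list whose product stays inside the cell, had 0.22 RPKM (CV 0.29) and 0.12 RPKM (CV 0.72), and was the only one of the 29 genes with a ratio below 1 (0.545).

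A wide spread between hearts of the same genotype was frequent among these genes but not shared by all. The median CV over the 29 genes with a ratio was 0.86 (range, 0.05 to 1.72) in *Dio3*+/+ and 1.07 (range, 0.33 to 1.26) in *Dio3*-/- hearts, beside 0.12 and 0.08 for all symbols. A CV of at least 1 was found for 21 of the 29 in *Dio3*-/- hearts, against 2.71% of all 20190 symbols, and for 13 of the 29 in *Dio3*+/+ hearts, against 4.00%. Among the symbols above 1 RPKM in at least 1 genotype, 0.321% had such a CV in *Dio3*-/- hearts. No share was calculated for symbols matched to these genes in level. The 20 genes with a ratio of at least 4 all had *Dio3*-/- CVs from 1.02 to 1.26, while their *Dio3*+/+ CVs ran from 0.51 to 1.72. The ratio and the *Dio3*-/- CV of a gene rest on the same *Dio3*-/- hearts, so they are not independent. Genes with a steady level in *Dio3*+/+ hearts (*Trf*, *Apoc1*, *F10*, *Itih3* and *Cps1*, with CVs of 0.05 to 0.35) had the smaller *Dio3*-/- CVs, from 0.33 to 0.72. All of these genes were measured in the same 4 hearts, so their values are not independent of each other.

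**Figure D2:**
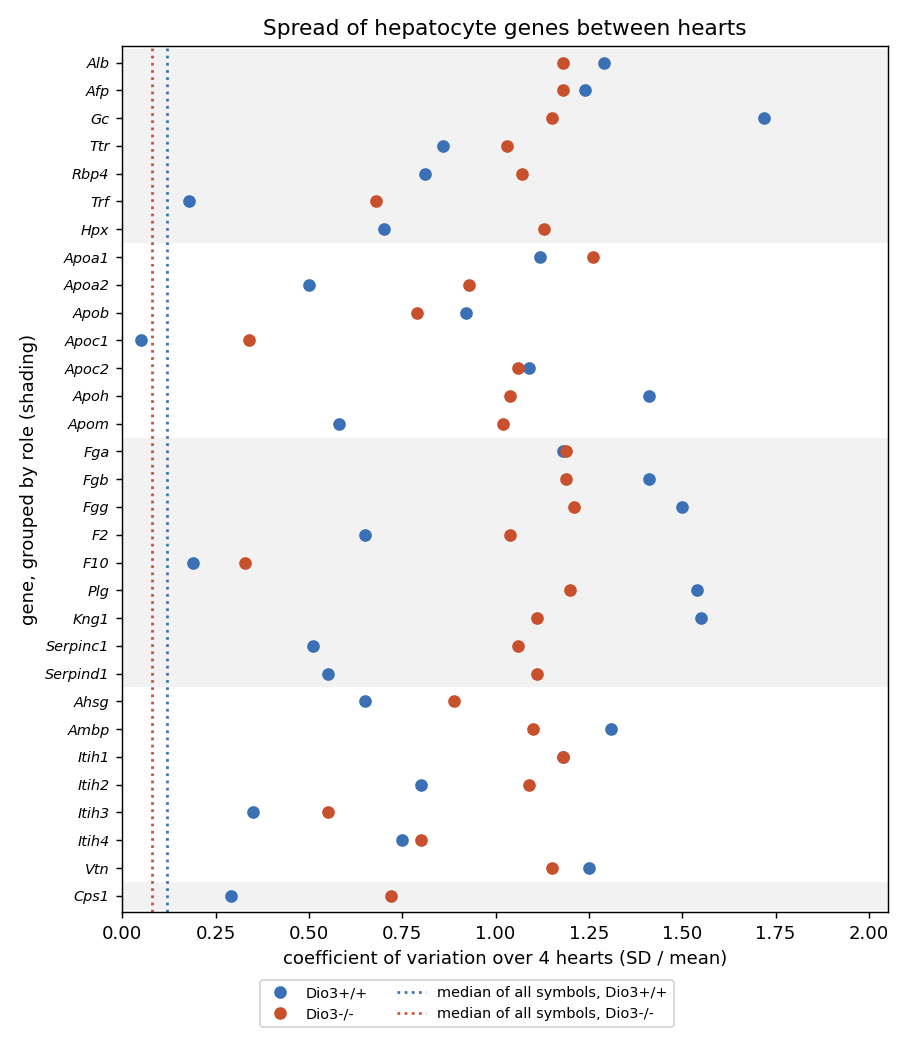
Coefficient of variation over 4 hearts (SD divided by mean) for the same genes in *Dio3*+/+ (blue) and *Dio3*-/- (red-orange) hearts; dotted lines mark the medians of all symbols with a *Dio3*+/+ mean of at least 0.05 RPKM (0.12 and 0.08). Most red-orange points sit between 1.02 and 1.26, and the blue points are more scattered.

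The limits set by mean and CV show how unequal the hearts were. For *Alb*, the highest *Dio3*-/- heart had to lie between 81.7 and 100.2 RPKM and the lowest at or below 14.9 RPKM. The highest *Dio3*+/+ heart had to lie between 13.9 and 15.2 RPKM and the lowest at or below 1.85 RPKM. For *Afp*, the highest heart lay between 101.0 and 123.8 RPKM in *Dio3*-/- and between 12.9 and 14.7 RPKM in *Dio3*+/+ hearts. Thus for both genes a single *Dio3*-/- heart held 56.7% to 69.4% of the sum over the 4 *Dio3*-/- hearts. The highest heart had to hold more than 50% of the *Dio3*-/- sum for 8 of the 31 genes with a *Dio3*-/- mean of at least 0.05 RPKM (*Alb*, *Afp*, *Apoa1*, *Fga*, *Fgb*, *Fgg*, *Plg* and *Itih1*), and more than 50% of the *Dio3*+/+ sum for 11 of 29. The limits lie on both sides of 50% for another 20 genes in *Dio3*-/- and 7 in *Dio3*+/+ hearts, which leaves these counts as minimums. By contrast, the highest *Dio3*-/- heart held 29.2% to 37.9% for *Apoc1*. For 6 of 29 genes (*Gc*, *Apoh*, *Fgb*, *Fgg*, *F10* and *Plg*), neither genotype could lie wholly above the other, so the genotypes overlapped. For the other 23, the summaries do not settle whether they did. No share over all symbols was calculated for the count of 6, nor for the 8 of 31 and 11 of 29 above. These counts describe the listed genes only. Which hearts were high, and whether they were those with the later age in the label, was not tested.

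**Figure D3:**
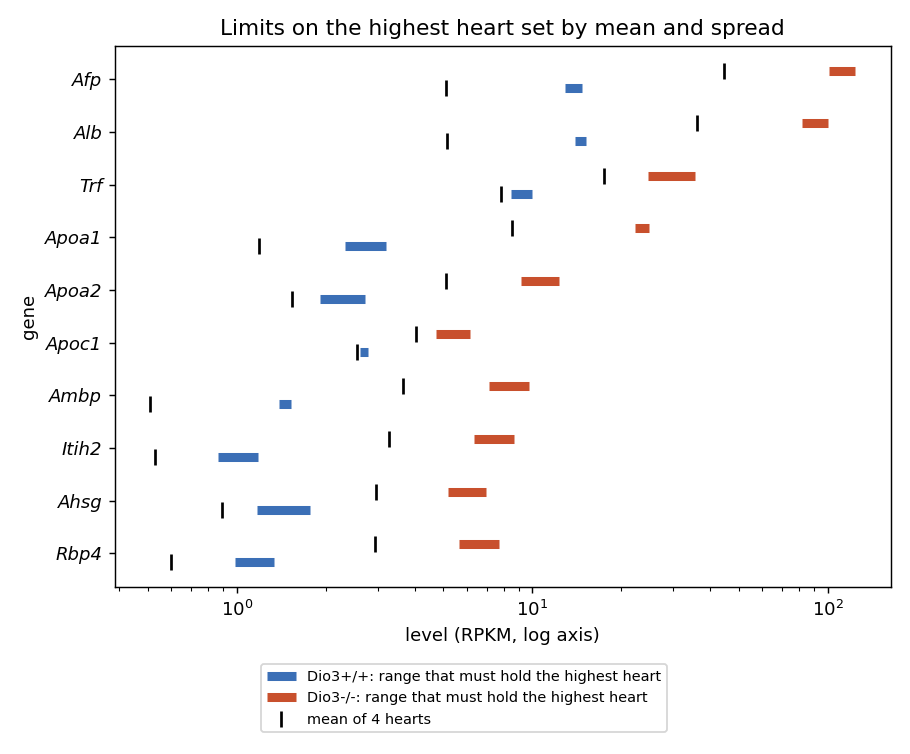
Range in RPKM (log axis) that must hold the highest of 4 hearts, calculated from the deposited mean and coefficient of variation, for the 10 hepatocyte genes with the highest *Dio3*-/- means; black marks are the means. For *Alb*, the highest heart lies between 81.7 and 100.2 RPKM in *Dio3*-/- and between 13.9 and 15.2 RPKM in *Dio3*+/+ hearts.

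The difference between genotypes was tested with limma from the deposited means and CVs, on the log2(RPKM + 0.5) scale, over the 32703 rows in which either genotype mean exceeded 1 RPKM. Of the hepatocyte genes, 19 were above this limit, 13 of them only through their *Dio3*-/- mean. By limma, 0 of the 19 passed an adjusted *P* limit of 0.05 (adjusted *P* from 0.113 to 0.398), while 18 were below 0.05 before adjustment. By Welch's test, 0 were below 0.05 before adjustment, and no share over all symbols is given for that test. By limma over all 14657 symbols tested, 2.29% passed the adjusted limit in their highest row, and 19.7% were below 0.05 before adjustment. The latter share stands beside the count of 18 and the later unadjusted limma counts. The log2 fold change was 3.01 for *Afp* (standard error 0.93, adjusted *P* = 0.121 by limma), 2.69 for *Alb* (standard error 0.95, adjusted *P* = 0.163) and 2.42 for *Apoa1* (standard error 0.82, adjusted *P* = 0.148). The lowest adjusted *P* value was that of *Apom* (0.113 by limma; log2 fold change 1.62, standard error 0.49). *Apoc1*, with the smallest standard error (0.18), had a log2 fold change of 0.57 and an adjusted *P* value of 0.133 by limma. A difference of the means was therefore not established after adjustment for any of the 19 genes tested. These *P* values do not show that the genotypes were alike.

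Other genes of the liver were grouped by role, again with results of these data known. Of 36 other liver plasma proteins, 22 had a ratio, 13 of them at least 2, and 9 had a CV of at least 1 in *Dio3*-/- hearts. By limma, 0 of the 10 tested passed the limit, and 7 were below 0.05 before adjustment. The highest were *Serpina6*, for corticosteroid-binding globulin (1.12 RPKM with CV 1.32, and 9.60 RPKM with CV 1.20), and the α1-antitrypsin copies *Serpina1b* (1.10 RPKM with CV 1.36, and 7.67 RPKM with CV 1.14) and *Serpina1a* (1.12 RPKM with CV 0.85, and 6.24 RPKM with CV 1.05). The *Serpina1* copies are near identical, and reads they share are not counted for any of them, so their levels are uncertain. Of 35 liver metabolic enzymes and transporters, 22 had a ratio, with a median of 1.07, and 7 were at least 2-fold higher. *Pygl* (10.87 and 10.43 RPKM) and *Ass1* (4.18 and 5.55 RPKM) were among the highest, with CVs of 0.15 or less. *Fabp1*, for the liver fatty acid-binding protein, had 0.12 RPKM (CV 1.21) and 0.96 RPKM (CV 1.16). By limma, 0 of the 7 enzymes and transporters tested passed, and 2 were below 0.05 before adjustment.

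Of 15 hepatocyte transcription factors, 14 had a ratio, with a median of 1.18, and 1 was at least 2-fold higher. This was *Hnf4a*, a central regulator of hepatocyte genes, with 0.08 RPKM (CV 1.48) and 0.38 RPKM (CV 1.05), a ratio of 4.75. A *Dio3*-/- CV of at least 1 was found for 4 of the 14, against 2.71% of all symbols with a ratio. Beside *Hnf4a* these were *Foxa1* (0.34 RPKM with CV 1.39, and 0.42 RPKM with CV 1.40), *Foxa2* (0.21 RPKM with CV 1.63, and 0.39 RPKM with CV 1.40) and *Foxa3* (0.09 RPKM with CV 0.53, and 0.15 RPKM with CV 1.14). The 3 highest, which are also used outside the liver, were *Prox1* (23.33 and 24.76 RPKM), *Hhex* (4.32 and 4.82 RPKM) and *Nr1i3* (2.44 and 3.19 RPKM), with CVs of 0.17 or less. By limma, 0 of the 4 tested passed, and 1 was below 0.05 before adjustment. *Idh3a* (104.6 and 133.61 RPKM), *Fasn* (21.88 and 21.94 RPKM) and *Me1* (16.24 and 15.55 RPKM) had the highest levels of the T3-responsive liver genes. Among 12 T3-responsive liver genes, 3 of 6 tested were higher in *Dio3*-/- hearts by limma: *Klf9* (log2 fold change 1.93, standard error 0.09, adjusted *P* = 5.74e-06), *Hr* (1.06, standard error 0.13, adjusted *P* = 0.00561) and *Gpd2* (0.35, standard error 0.05, adjusted *P* = 0.00781). Their CVs were 0.19 or less in both genotypes, in contrast with those of the hepatocyte genes. The authors reported *Klf9* and *Gpd2* as raised in the same RNA sequencing of hearts, and *Klf9* and *Hr* as raised in fetal hearts by quantitative PCR. They also reported *Klf9*, *Hr* and *Gpd2* as raised in craniofacial tissue, so these genes are not particular to liver. The genes of this list left untested were low: *Thrsp* (0.23 and 0.15 RPKM) and *Pck1* (0.04 and 0.02 RPKM). *Dio1*, *Cyp7a1*, *G6pc* and *Serpina7*, also untested, had no mean above 0.01 RPKM.

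Markers of other cells were read beside these values. Over 7 markers of liver sinusoid and stellate cells, the summed level went from 10.1 RPKM in *Dio3*+/+ hearts to 11.1 RPKM in *Dio3*-/- hearts. *Lyve1*, *Oit3* and *Reln* made up most of this sum, and which cells their transcripts came from was not tested. None of the 7 was at least 2-fold higher, and no *Dio3*-/- CV exceeded 0.38. Of the 7, 5 had higher and 2 had lower means. The highest ratio was 1.75, for *Stab2* (0.16 RPKM with CV 0.05, and 0.28 RPKM with CV 0.37). Over 4 markers of visceral endoderm, an extraembryonic tissue that also makes *Afp* and apolipoproteins, the sums were 3.57 and 3.87 RPKM, and over 9 markers of lung, gut and thyroid endoderm they were 9.07 and 9.66 RPKM, with no ratio of 2 or more among the 4 and 4 genes that had one. *Sox17* made up most of the visceral endoderm sum in both genotypes. In the list of lung, gut and thyroid endoderm *Nkx2-1* made up most of the sum, and 5 of the 9 genes were too low for a ratio. The lung surfactant genes among these had higher and widely spread *Dio3*-/- means: *Sftpc* was listed at 0 in *Dio3*+/+ and had 0.26 RPKM (CV 1.47) in *Dio3*-/- hearts, and *Sftpb* had 0.02 (CV 0.30) and 0.14 RPKM (CV 0.97). The highest of these 3 lists were *Lyve1* (3.67 and 4.01 RPKM), *Oit3* (1.93 and 2.44 RPKM) and *Reln* (1.81 and 1.40 RPKM), then *Sox17* (2.02 and 2.36 RPKM), *Lrp2* (0.73 and 0.65 RPKM) and *Cubn* (0.49 and 0.51 RPKM), and *Nkx2-1* (8.18 and 8.35 RPKM), *Tg* (0.41 and 0.39 RPKM) and *Sox2* (0.35 and 0.38 RPKM). Of 16 erythroid genes found, 12 had lower and 4 had higher means in *Dio3*-/- hearts. The 4 were *Tfrc* (18.07 and 21.68 RPKM), *Klf1* (3.25 and 3.68 RPKM), *Hemgn* (2.84 and 4.45 RPKM) and *Epor* (1.92 and 1.96 RPKM). Erythroid levels, mostly globin, summed to 47189.4 RPKM for *Dio3*+/+ hearts and to 16354.4 RPKM for *Dio3*-/- hearts. This sum, though not the means of those 4 genes, was lower in *Dio3*-/- hearts. The globin genes *Hbb-y*, *Hbb-b1* and *Hba-x* made up most of it in both genotypes. Whether it came from blood in the heart or from other tissue was not tested. The erythroid CVs, from 0.16 to 0.44 in *Dio3*+/+ and from 0.16 to 0.73 in *Dio3*-/- hearts, were below 1 for all 16. The highest were *Hbb-y* (29100.96 and 9908.94 RPKM), *Hbb-b1* (9842.95 and 3549.92 RPKM) and *Hba-x* (7388.93 and 2529.68 RPKM). Of the 16, 9 were below 0.05 before adjustment and only *Hbb-bh1* was lower by limma after it (log2 fold change -1.51, standard error 0.32, adjusted *P* = 0.0468). All 6 platelet genes had lower means (sums of 40.3 and 24.9 RPKM), and 3 of 6 blood progenitor genes had. The highest were *Pf4* (13.09 and 7.66 RPKM), *Ppbp* (9.91 and 6.56 RPKM) and *Itga2b* (6.66 and 3.77 RPKM) for platelets, and *Cd34* (39.15 and 45.58 RPKM), *Tal1* (31.41 and 15.88 RPKM) and *Lyl1* (15.88 and 10.43 RPKM) for progenitors. By limma, 0 of these 12 genes passed, with 4 of 6 and 3 of 6 below 0.05 before adjustment. Of 8 cardiomyocyte genes, *Actc1*, *Tnnt2* (1212.43 and 1280.77 RPKM) and *Myl7* (846.82 and 1066.12 RPKM) had the highest levels, 3 (*Myh6*, *Tnni3* and *Ryr2*) were higher by limma, and no CV exceeded 0.19 in either genotype. The part of other cells in the levels of the hepatocyte genes was not tested.

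**Figure D4:**
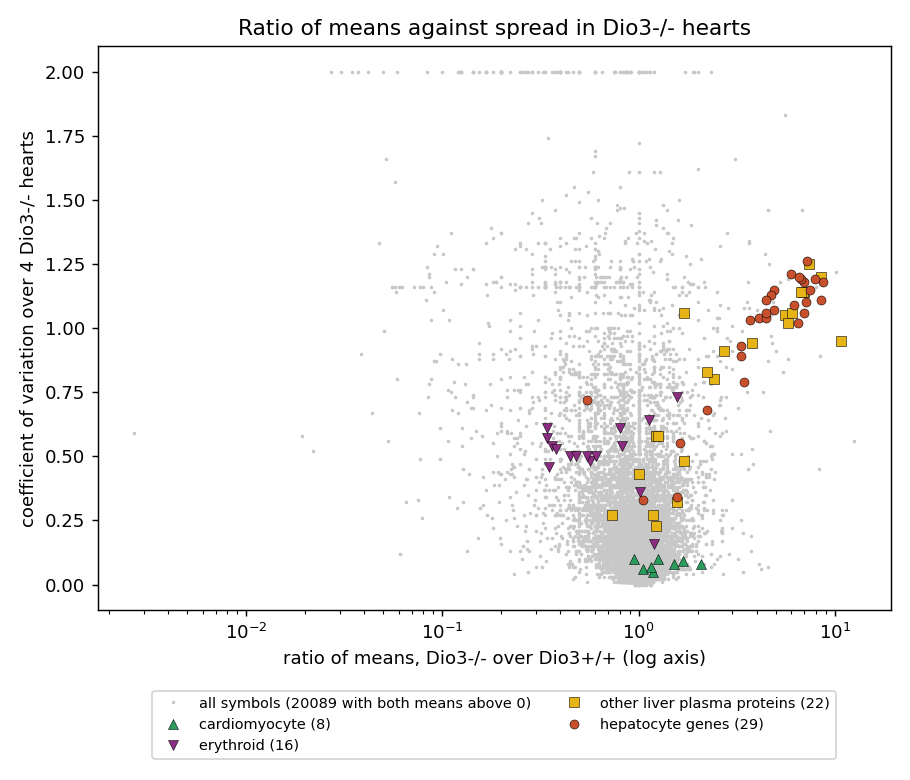
Ratio of the *Dio3*-/- to the *Dio3*+/+ mean (log axis) against the coefficient of variation over the 4 *Dio3*-/- hearts, for symbols with a *Dio3*+/+ mean of at least 0.05 RPKM (gray) and for 4 gene lists. Most hepatocyte genes (25 of 29 with a ratio of at least 2) and 13 of 22 other liver plasma proteins lie to the right, while *F10*, *Cps1* and several of the other plasma proteins lie at low ratios and CVs, erythroid genes lie mostly at ratios below 1, and cardiomyocyte genes have CVs of at most 0.10.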

How the data were processed

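Total RNA of 4 *Dio3*+/+ and 4 *Dio3*-/- fetal hearts was depleted of ribosomal RNA and sequenced by a company. For the authors, the company mapped the single-end reads by NovoAlign (version 2.08), counted only unique alignments and scaled all libraries to the smallest one. No genome build is named (not given in the sources used here). The authors deposited a table of 51414 rows, each a UCSC transcript, with a mean per genotype. The deposited means were taken as RPKM, the unit the authors filter on in the Methods. The deposited coefficient of variation is a ratio of SD to mean. The deposited fold changes and *q* values, which are the authors' comparisons, were not used. Values for single hearts are not part of the table used here, and depth per heart is unknown from it.

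The genes and lists were chosen with earlier results of these data known. All hepatocyte genes of the list are described, and of each other list the 3 with the highest means (1 enzyme is not reported here), with others named after their values were seen. Each SD was put on the log2(RPKM + 0.5) scale from the coefficient of variation, and limma (version 3.58.1, R version 4.3.3) was run with a mean-variance trend (6 residual and 3.52 prior degrees of freedom) and Benjamini-Hochberg adjustment over 32703 rows. The test was tested on simulated data. Limits on single hearts allowed for a rounding error of 0.005 in both deposited values. Python (version 3.11.15), numpy (2.4.6) and pandas (2.3.3) were used.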

Additional observations from a re-analysis of the deposited data

How the results depend on the processing

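No hepatocyte gene had an adjusted *P* value under 0.05 in limma or in any of 10 alternatives: other pseudocounts (0.1 and 1 RPKM), the expression filter left out or raised to an average of 5 RPKM over both genotypes, the variance trend left out, a single row for each symbol, Welch's test, log-normal moments in place of the approximated SD, centring on the median log2 ratio (a shift of 0.038) and the mean over all rows of a symbol. The lowest adjusted *P* value over these settings was 0.0624 by limma, with log-normal moments, and the highest 0.922, without the filter. Of the genes in the other lists, 7 passed, and 5 to 10 in the alternatives run. The median log2 fold change of the genes tested was 1.54, 2.69 with a mean above 5 RPKM, which left 3 genes, and from 1.11 to 2.20 otherwise. The median *Dio3*-/- coefficient of variation was 1.07 with all 3 choices of rows and genes, of which the limit to genes above 1 RPKM was chosen after seeing the data. Leaving out *Ahsp* changed nothing, as it had no row. No paired analysis was possible because the table holds no values for single hearts, and leaving out each replicate was not run for the same reason. The log of a mean is a poor stand-in for the mean of the logs at coefficients of variation near 1, and means near 0.05 RPKM carry a rounding error of up to 0.005 RPKM.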

Other observations

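Among symbols above 1 RPKM in at least 1 genotype, few combined a wide spread with a higher mean in *Dio3*-/- hearts. In all, 22 had a *Dio3*-/- coefficient of variation of at least 1 and a *Dio3*-/- mean at least 2-fold the *Dio3*+/+ mean. Of these, 13 were hepatocyte genes of the list and 7 were other liver genes (*Serpina6*, 5 copies of *Serpina1* and *Serpinf2*, for α2-antiplasmin). The other 2, named after their values were seen, were *Foxf1a*, for a transcription factor of the mesenchyme around gut, lung and liver (means of 0.31 and 1.43 RPKM, coefficients of variation 0.65 and 1.25), and *Mir335* (means of 0.16 and 1.09 RPKM, coefficients of variation 1.16 and 1.46). Both had wide spreads in *Dio3*-/- hearts like those of the liver genes. Most of the 22, and all of the 13 except *Afp*, *Alb* and *Apoa1*, were above 1 RPKM only through their *Dio3*-/- mean. Hepatocyte genes below 1 RPKM with a similar spread and ratio, such as *Kng1* and *Vtn*, are outside this count. No count without the limit was made. The same contrast served to choose the hepatocyte genes, so these counts describe the table and were not tested.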
